A study of Saccharomyces cerevisiae with 3 samples.

Results

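The 5S rRNA is the smallest RNA of the large ribosomal subunit, and its reads were examined along the segment RDN5-2 in 3 libraries of crosslinking and analysis of cDNA (CRAC). The members are the nucleotides that the deposited pileups list under RDN5-2, which are 121 of the 6983 nucleotides listed for 8 rRNA segments. The rule uses the segment name and no measured value. The wild type library came from the yeast strain BY4741 without a tag. Both Get4-HTP libraries came from BY4741 with a His6-TEV-ProtA-tag (HTP-tag) at the C-terminus of Get4, encoded at the genomic GET4 locus, and are named Get4-HTP 1 and Get4-HTP 2. All cells were grown in low uracil medium with 4-thiouracil and were irradiated with light of 365 nm, which crosslinks 4-thiouridine (4sU) in RNA to nearby protein. Wild type has no tagged protein, so its reads give the background of the purification, and it was amplified with more PCR cycles than Get4-HTP. The question of the experiment was which rRNA Get4 contacts.

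5S rRNA is transcribed by RNA polymerase III from genes of its own, which in yeast lie between the genes of the RNA polymerase I transcript RDN37 that yields 18S, 5.8S and 25S rRNA. It joins the 60S subunit together with the ribosomal proteins Rpl5 and Rpl11 and forms part of the central protuberance, far from the exit of the polypeptide tunnel. Its ends pair with each other, and the rest folds into arms separated by loops. Get4 is a subunit of the Get4/5 complex, which bridges Sgt2 and Get3 so that tail-anchored proteins can pass from Sgt2 to Get3 and on to the endoplasmic reticulum.

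The sequence is shown because T-C substitutions, which are taken as marks of crosslinks, were read at its T positions. It is given 5′ to 3′ in DNA letters as the files list it. The 7 capitals mark every T that was among the 5 most substituted positions of at least 1 library.
RDN5-2: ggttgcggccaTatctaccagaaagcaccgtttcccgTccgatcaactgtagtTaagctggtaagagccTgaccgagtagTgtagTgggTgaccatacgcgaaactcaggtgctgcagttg
The segment holds 28 T, 29 A, 29 C and 35 G. T made up 23.1% of its nucleotides, against 27.8% in 5.8S, 28.3% in 18S and 25.6% in 25S. Nucleotides 1 to 9 and 112 to 120 can form 9 antiparallel pairs without a gap, of which 4 are G-U pairs. RefSeq (assembly R64) annotates 6 5S genes on chromosome XII, all as rRNA. RDN5-2 (YNCL0027W) lies at 468813 to 468931 there and has 119 nucleotides, which is 2 fewer than the files list, and RDN5-1 and RDN5-6 have 121. How reads were assigned among the 6 genes is not given in the sources used here.

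Reads on RDN5-2 numbered 471 of 107659 mapped reads of wild type, 1463 of 614992 of Get4-HTP 1 and 1097 of 933943 of Get4-HTP 2. On 5S the number of T-C substitutions equalled the number of reads in each library. Each 5S read thus carried 1 substitution, because only reads with exactly 1 T-C mutation had been retained. The substitution is taken as the mark of a crosslink. The filter cannot tell a crosslink from another T-C change, and this was not tested. No substitution was listed at another base. This was fixed in advance, because the mapping allowed at most 1 mismatch and that mismatch had to be T-C. No deletion was listed. A read covered a mean of 36.7 nucleotides of 5S in wild type, and 36.5 and 33.8 in the respective Get4-HTP libraries, so that neighboring nucleotides share most of their reads. As only 1 wild type library was used, differences between the strains have no replicate check for the untagged strain, and none was given a p value. The folder names in the file headers give wild type and Get4-HTP 1 the same run code and Get4-HTP 2 another. Strain can be compared within a run code only between wild type and Get4-HTP 1.

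Relative to all mapped reads, 5S was higher in wild type than with Get4-HTP, in either library. Wild type had 4375 5S reads per 1000000 mapped reads (Wilson 95% confidence interval 3998 to 4787). Get4-HTP 1 had 2379 (2260 to 2504) and Get4-HTP 2 had 1175 (1107 to 1246). The Get4-HTP mean was 1777 ± 852 (SD, n = 2), which is 0.406 ± 0.195 of wild type. The 3 intervals lay apart. Get4-HTP 1 reached 0.544 of wild type and Get4-HTP 2 only 0.268, so these replicates differed by a factor of similar size. The other mature rRNAs were lower as well. The number of PCR cycles also differed between the strains, and its part in this difference cannot be told apart from that of the tag. This scale also depends on other RNAs, because rRNA took a smaller part of all mapped reads with Get4-HTP. Wild type had 13924 rRNA reads among 107659 mapped, Get4-HTP 1 had 30541 among 614992, and Get4-HTP 2 had 30264 among 933943. The paper reports more tRNA with Get4-HTP, but a larger rRNA proportion once tRNA is set aside. Whether other RNAs account for the lower 5S values was not tested. On the same scale 5.8S reached 0.212 ± 0.0825 of wild type, 18S 0.318 ± 0.136 and 25S 0.341 ± 0.0747 (SD, n = 2).

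Within the rRNA reads, 5S took a larger share in Get4-HTP 1 than in wild type and a similar one in Get4-HTP 2. It made up 3.38% of rRNA reads in wild type (Wilson 95% interval 3.095% to 3.70%), 4.79% (4.56% to 5.04%) in Get4-HTP 1 and 3.62% (3.42% to 3.84%) in Get4-HTP 2. The interval of Get4-HTP 1 lay above that of wild type, while the interval of Get4-HTP 2 overlapped it. With a mean of 4.21% ± 0.824 (SD, n = 2), Get4-HTP was above wild type by no more than about this SD. Counted in hits, which weight reads by their length, wild type had a 5S share of 4.11%, Get4-HTP 1 of 5.53% and Get4-HTP 2 of only 3.56%, so that the Get4-HTP libraries lay on opposite sides of wild type. RDN5-2 makes up 1.73% of the listed nucleotides and was thus above its share by length in all 3 libraries.

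The denominator moved with the strain, because nucleotides 1392 to 1451 of 25S, which surround the helices h46 and h47, held 3.39% of all rRNA hits in wild type, and 18.6% and 48.2% in the respective Get4-HTP libraries. Hits are the reads that cover a nucleotide. Outside this stretch 5S held 3.64% of rRNA substitutions in wild type (3.33% to 3.97%), 5.94% (5.65% to 6.24%) in Get4-HTP 1 and 6.81% (6.43% to 7.21%) in Get4-HTP 2. This comparison was chosen after the values had been seen. As the stretch was defined by high Get4-HTP hits, leaving it out raises the 5S share of Get4-HTP by construction, and these values are a description with no call.

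5S was also set against 1 other rRNA at a time. There were 0.542 5S reads for each 5.8S read in wild type (Wilson 95% interval 0.485 to 0.606), 1.09 (1.01 to 1.17) in Get4-HTP 1 and 0.944 (0.869 to 1.03) in Get4-HTP 2. 5.8S is the rRNA closest to 5S in size, and both Get4-HTP ratios lay above wild type. The 5.8S share of rRNA reads was 0.705 and 0.615 of wild type in the respective Get4-HTP libraries, whereas the 5S share was 1.42 and 1.07 of it, so that in Get4-HTP 2 the ratio moved mostly through 5.8S. For 18S the ratio was 0.148 in wild type (0.135 to 0.164), 0.195 (0.184 to 0.206) in Get4-HTP 1 and 0.180 (0.169 to 0.192) in Get4-HTP 2, again higher in both Get4-HTP libraries. For 25S it was 0.0550 in wild type (0.0501 to 0.0603), 0.0759 (0.0720 to 0.0801) in Get4-HTP 1 and 0.0512 (0.0482 to 0.0544) in Get4-HTP 2. Only Get4-HTP 1 lay above wild type there, and the 25S reads include those of the h46/h47 stretch. The intervals cover counting error only, as reads were collapsed by their molecular identifiers but only 1 wild type library was used.

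Per nucleotide, 5S received 1328 hits per 1000000 mapped reads in wild type, and 718 and 328 in the respective Get4-HTP libraries. This was 2.65, 3.40 and 2.98 times the coverage of 18S in the same library. Against 5.8S the factor for wild type was 0.725, while those for Get4-HTP 1 and Get4-HTP 2 were 1.49 and 1.23. 5S was thus covered less than 5.8S in wild type and more than 5.8S in both Get4-HTP libraries. Substitutions per T position, which allow for the low T content of 5S, gave the same order. They numbered 156, 85.0 and 41.9 per 1000000 mapped reads on 5S and 181, 49.2 and 28.1 on 5.8S, in wild type, Get4-HTP 1 and Get4-HTP 2, respectively. As substitutions nearly equalled reads on both RNAs, these values rest on the same reads as the hits and are no separate check.

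**Figure D1:**
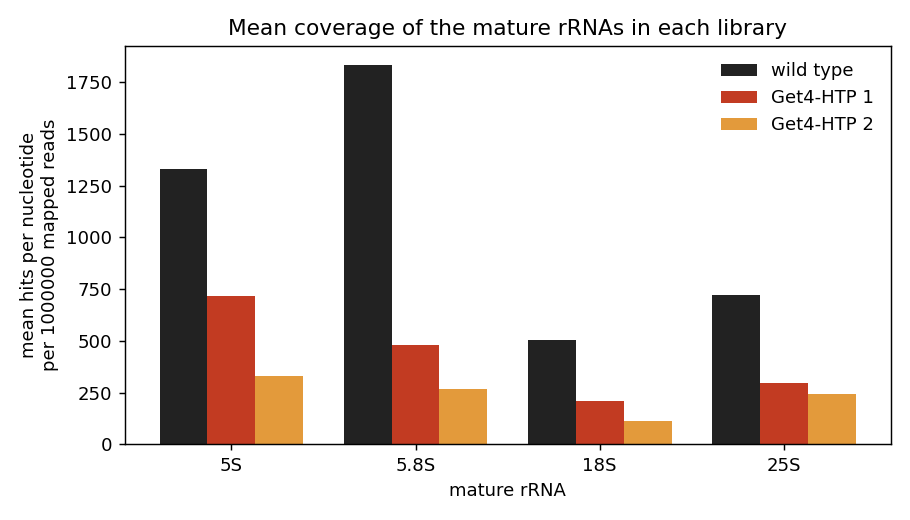
Bars give the mean hits per nucleotide per 1000000 mapped reads (vertical axis, linear from 0) of 5S, 5.8S, 18S and 25S rRNA in the wild type library and in both Get4-HTP libraries, with 1 bar per library and no error bar. The 5S bar is below the 5.8S bar in wild type (0.725 times) and above it in Get4-HTP 1 (1.49 times) and Get4-HTP 2 (1.23 times), and every bar of Get4-HTP is lower than that of wild type.

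Along the RNA, hits had their maximum near nucleotide 75 and fell from there towards the 3′ end. In wild type and Get4-HTP 1 they mostly rose from the 5′ end up to it, whereas Get4-HTP 2 had an earlier hump, with 413 hits at nucleotide 34 and 328 at nucleotide 43. The highest nucleotide was 75 in wild type, with 304 hits, and also 75 in Get4-HTP 1, with 883 hits. In Get4-HTP 2 it was nucleotide 74, with 461 hits. The maximum was 2.13 times the mean of 5S in wild type, and 1.999 times and 1.51 times in the respective Get4-HTP libraries. The profile of 5S was broad in all 3 libraries and flattest in Get4-HTP 2. In 5.8S, which is of similar length, the maximum was 1.76, 2.36 and 2.52 times the mean, so 5S was not broader than 5.8S in wild type. In 25S it was 15.7, 29.1 and 56.7 times.

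Hits above 50% of the maximum extended from nucleotide 45 to 96 in wild type, from 40 to 96 in Get4-HTP 1 and from 1 to 96 in Get4-HTP 2. The 3′ boundary was the same nucleotide in all libraries and the 5′ boundary was not. Above 20% of the maximum the runs were 13 to 110, 11 to 108 and 1 to 112. Nucleotide 1 had 32 hits in wild type, and 132 and 246 in the respective Get4-HTP libraries, which were 10.5%, 14.9% and 53.4% of the respective maximum. Nucleotides 1 to 9, the 5′ strand of the possible terminal pairs, had a mean of 11.2%, 16.2% and 55.1% of the maximum. For the 3′ strand, nucleotides 112 to 120, the means were 4.90%, 4.27% and 6.12%. Both strands were poorly covered in wild type and Get4-HTP 1, and only the 5′ strand was well covered in Get4-HTP 2. The 3′ strand includes nucleotides 118 to 120, which had at most 4 hits in any library, and RefSeq gives RDN5-2 only 119 nucleotides. Its low mean thus includes the end of the listed sequence.

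**Figure D2:**
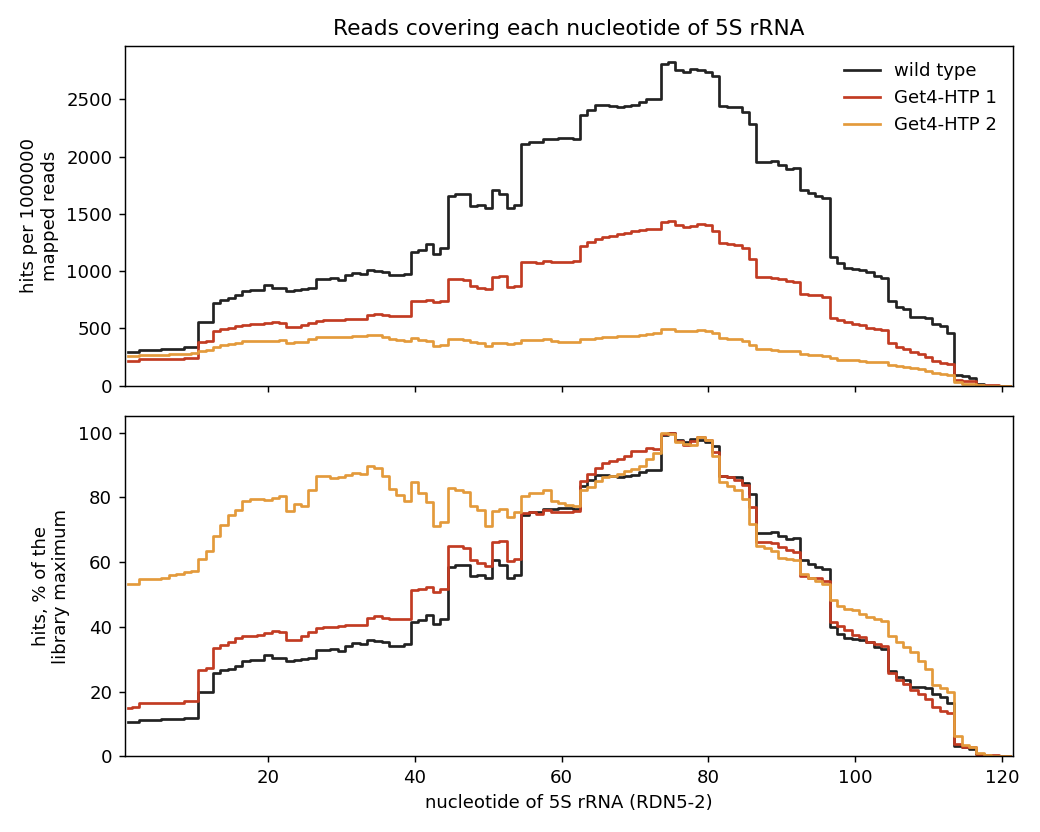
Lines give the hits at each nucleotide of RDN5-2 (horizontal axis, counted from the 5′ end) in the 3 libraries, per 1000000 mapped reads in the upper panel and as a percentage of the maximum of each library in the lower panel. Wild type and Get4-HTP 1 run close together in the lower panel, whereas Get4-HTP 2 starts at 53.4% of its maximum at nucleotide 1, and all 3 lines end near 0 at the 3′ end.

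The coverage changed in steps at nucleotides that were picked after their values had been seen. Relative to the maximum, some of these steps were smaller in Get4-HTP 2. Between nucleotides 44 and 45 hits rose from 129 to 178 in wild type, from 455 to 573 in Get4-HTP 1 and from 333 to 382 in Get4-HTP 2. Between 54 and 55 they rose from 170 to 227, from 537 to 664 and from 348 to 371. Such rises mark nucleotides at which more reads began than ended. The largest drop of wild type and Get4-HTP 1 was between 96 and 97, from 176 to 121 and from 477 to 365. Get4-HTP 2 fell only from 245 to 223 there. The largest drop of Get4-HTP 2 was between 113 and 114, from 92 to 29, and there wild type fell from 50 to 10 and Get4-HTP 1 from 119 to 33. Few reads extended beyond it. Nucleotide 117 had 2, 7 and 4 hits, and nucleotides 120 and 121 had 0 hits in every library. A count of 0 allows up to 3 reads, which is 27.9 reads per 1000000 mapped reads in wild type, and 4.88 and 3.21 in the respective Get4-HTP libraries. Nucleotides 120 and 121 were thus not seen in any library, and whether depth accounts for this was not tested. Reads shorter than 18 nucleotides had been discarded and sequences of other 5S copies were not compared, and the part of either in the low coverage was not tested.

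When 5S was divided into 3 stretches of similar length, the distribution of hits of Get4-HTP 2 stood apart. Nucleotides 1 to 40 held 18.4% of 5S hits in wild type, and 21.8% and 36.8% in the respective Get4-HTP libraries. Nucleotides 41 to 80 held 52.5%, 51.7% and 41.8%. Nucleotides 81 to 121 held 29.1%, 26.5% and 21.4%. Get4-HTP was lower than wild type in the last stretch. Its share decreased by 5.17 percentage points on average, and decreased by 2.61 points in Get4-HTP 1 and decreased by 7.73 points in Get4-HTP 2.

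Substitutions allow counting intervals, since each 5S read enters once, but they were distributed over the stretches differently from hits. The first stretch, with 9 T positions, received 24.2% of 5S substitutions in wild type (Wilson 95% interval 20.6% to 28.3%), 29.0% (26.7% to 31.4%) in Get4-HTP 1 and 46.9% (44.0% to 49.9%) in Get4-HTP 2. The last stretch, with 10 T positions, received 50.3% in wild type (45.8% to 54.8%), 44.6% (42.0% to 47.1%) in Get4-HTP 1 and 33.2% (30.5% to 36.0%) in Get4-HTP 2. In the first and last stretches the intervals of wild type and Get4-HTP 1 overlapped and that of Get4-HTP 2 lay apart from both. The middle stretch, with 9 T positions, received 25.5% (21.8% to 29.6%) in wild type and 26.5% (24.3% to 28.8%) in Get4-HTP 1. In Get4-HTP 2 it received 19.9% (17.6% to 22.3%), which overlapped wild type but not Get4-HTP 1. In every library this was below its share of hits.

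The likeness of the profiles was measured as the overlap, which is the sum over nucleotides of the smaller of 2 shares of 5S hits. The libraries overlapped by 95.7% between wild type and Get4-HTP 1, 84.2% between Get4-HTP 1 and Get4-HTP 2 and 80.7% between wild type and Get4-HTP 2. The untagged library was thus more like Get4-HTP 1 than the Get4-HTP libraries were like each other. The corresponding overlaps for 25S were 68.9%, 55.4% and 33.6%, for 18S 81.7%, 79.3% and 68.6%, and for 5.8S 77.5%, 87.6% and 65.8%. By this overlap the closest libraries were those with the same run code in 5S, 18S and 25S, and both Get4-HTP libraries in 5.8S. The correlation of hits over nucleotides gave the same order for 5S (Pearson's r = 0.99 for wild type with Get4-HTP 1, 0.76 for both Get4-HTP libraries and 0.69 for wild type with Get4-HTP 2, over 121 nucleotides that share reads). For 25S it gave another order, with 0.78 for both Get4-HTP libraries and 0.66 for wild type with Get4-HTP 1, over 3396 nucleotides. Overlaps of long segments rest on fewer reads per nucleotide, so their sizes are not compared. Run code and biological replicate cannot be told apart.

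The segments were divided into bins of 10 nucleotides, and bins with at least 20 wild type hits were compared with wild type by their share of rRNA hits. All 12 bins of 5S up to nucleotide 120 were compared. In 0 of them was the share at least 2 times wild type in both Get4-HTP libraries, against 2.41% of the 665 bins of all segments. In 0 was it at most 0.5 times wild type in both, against 21.1% of all bins. The ratio to wild type ranged from 1.07 to 1.83 in Get4-HTP 1 and from 0.577 to 3.01 in Get4-HTP 2, with the highest value of both libraries in nucleotides 1 to 10. This bin had 343 hits in wild type, and 1439 and 2549 in the respective Get4-HTP libraries. Per 1000000 mapped reads, 4 of the 12 bins were at most 0.5 times wild type in both Get4-HTP libraries, against 77.4% of all bins. These 4 bins span nucleotides 81 to 120. Their Get4-HTP 1 ratios of 0.430 to 0.497 lay just inside the limit, and those of the bins from nucleotide 51 to 80, from 0.519 to 0.528, lay just outside it, so the split rests on the limit.

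T-C substitutions were spread over most T positions but were concentrated on a few. Of the 28 T positions, 26 carried at least 1 substitution in some library, and T119 and T120 carried 0 in every library at no more than 3 hits. The 5 most substituted positions of each library held 58.0% of its 5S substitutions in wild type, and 58.4% and 66.0% in the respective Get4-HTP libraries. Positions 38, 81 and 90 were among them in all 3 libraries. Their surroundings are shown with 10 nucleotides on either side, with those of positions 12 and 54 for comparison, and the capital marks the substituted T.
T12: gttgcggccaTatctaccaga
T38: ccgtttcccgTccgatcaact
T54: caactgtagtTaagctggtaa
T81: gaccgagtagTgtagtgggtg
T90: gtgtagtgggTgaccatacgc

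T38C, the substitution at nucleotide 38 counted from nucleotide 1 of RDN5-2, had the highest share of substituted reads of 5S in all 3 libraries. It was present in 54 of 104 reads of wild type, 228 of 375 of Get4-HTP 1 and 259 of 372 of Get4-HTP 2. This corresponds to 51.9% (Wilson 95% interval 42.4% to 61.3%), 60.8% (55.8% to 65.6%) and 69.6% (64.8% to 74.1%). Get4-HTP 2 lay above wild type, and the interval of Get4-HTP 1 overlapped both. Among the 1054 T positions of all rRNA segments with at least 20 hits in every library, it ranked 20 in wild type, and 9 and 8 in the respective Get4-HTP libraries. A high share at nucleotide 38 was therefore also a feature of the untagged library.

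T12C was present in 20 of 60 reads of wild type, 74 of 240 of Get4-HTP 1 and 162 of 293 of Get4-HTP 2. The shares were 33.3% (22.7% to 45.9%), 30.8% (25.3% to 36.9%) and 55.3% (49.6% to 60.9%). Wild type and Get4-HTP 1 overlapped and Get4-HTP 2 was higher. As a part of all 5S substitutions, T12C made up 4.25% in wild type, and 5.06% and 14.8% in the respective Get4-HTP libraries, and it was the third most frequent substitution of Get4-HTP 2.

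T81C was present in 76 of 291 reads of wild type, 204 of 831 of Get4-HTP 1 and 179 of 427 of Get4-HTP 2. The shares were 26.1% (21.4% to 31.5%), 24.5% (21.7% to 27.6%) and 41.9% (37.3% to 46.7%), again with Get4-HTP 2 alone above the others. T90C behaved in the opposite way. It was present in 82 of 207 reads of wild type, 208 of 571 of Get4-HTP 1 and 76 of 283 of Get4-HTP 2, which gave 39.6% (33.2% to 46.4%), 36.4% (32.6% to 40.5%) and 26.9% (22.03% to 32.3%). T90C was the most frequent 5S substitution of wild type, with 17.4% of them, and made up 14.2% in Get4-HTP 1 and 6.93% in Get4-HTP 2. T81C made up 16.1% in wild type, which was within counting error of T90C. T38C was the most frequent in both Get4-HTP libraries, with 15.6% and 23.6%, against 11.5% in wild type, but in Get4-HTP 1 its interval overlapped that of T90C.

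**Figure D3:**
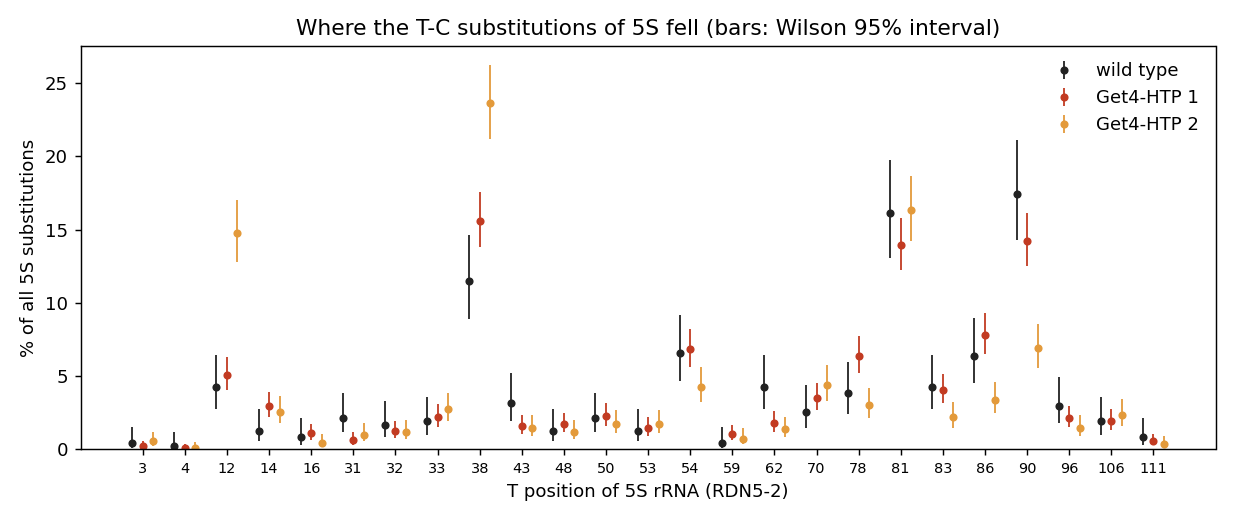
Points give the percentage of all 5S substitutions that fell on each T of RDN5-2 with at least 20 hits in every library (horizontal axis, by nucleotide number), with Wilson 95% intervals as bars and 1 color per library. Positions 38 and 81 are among the highest in all libraries, position 90 is high in wild type and Get4-HTP 1 but at 6.93% in Get4-HTP 2, and position 12 stands out in Get4-HTP 2 with 14.8% against 4.25% in wild type and 5.06% in Get4-HTP 1.

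Nucleotides 53 and 54, adjacent T positions covered by nearly the same reads, differed in their shares. T54C was present in 18.2% of reads in wild type, and 18.6% and 13.5% in the respective Get4-HTP libraries. At the adjacent nucleotide 53 the shares were 3.59%, 3.95% and 5.57%. The intervals of nucleotides 53 and 54 lay apart in every library, with 7.62% as the upper bound of T53C and 13.2% as the lower bound of T54C in wild type. The difference between these uridines was thus also seen without the tag. In wild type the adjacent T positions 31, 32 and 33 showed no such difference, with 9.62%, 7.55% and 8.57% and overlapping intervals. In Get4-HTP 1 nucleotide 31 had 2.51% (1.33% to 4.71%) and nucleotide 33 had 8.96% (6.42% to 12.4%). In Get4-HTP 2 these were 2.75% (1.54% to 4.86%) and 7.46% (5.28% to 10.5%). Nucleotides 31 and 33 thus lay apart in both Get4-HTP libraries, while nucleotide 32 overlapped both of them. The shares of such neighbors come from largely the same reads, each with 1 substitution. They are therefore not independent, and the comparison of their intervals is a description. Among T positions with at least 20 hits in every library, the lowest shares were at nucleotide 59 in wild type (0.862%) and at nucleotide 4 in Get4-HTP 1 (0.685%) and Get4-HTP 2 (0.395%).

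The share of substituted reads was compared with wild type at the 25 T positions of 5S with at least 20 hits in every library. A position was called when the wild type interval lay apart from both Get4-HTP intervals on the same side. Higher in both Get4-HTP libraries were 0 of 25, against 0.854% of the 1054 T positions of all segments. Lower in both was 1 of 25, against 2.47% of all. This was T31C, present in 10 of 104 reads in wild type (9.62%, interval 5.31% to 16.8%), 9 of 358 (2.51%, 1.33% to 4.71%) in Get4-HTP 1 and 11 of 400 (2.75%, 1.54% to 4.86%) in Get4-HTP 2. It was not called with Clopper-Pearson intervals. With 1 position in 25, 5S did not stand out from the background. The background was not matched for depth. 5S was covered more deeply per nucleotide than 18S and 25S in every library, and narrower intervals lie apart more easily. The 25 positions had a median share of 7.63% in wild type, and 6.36% and 6.23% in the respective Get4-HTP libraries, while 25S had 8.14%, 7.27% and 5.98%.

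**Figure D4:**
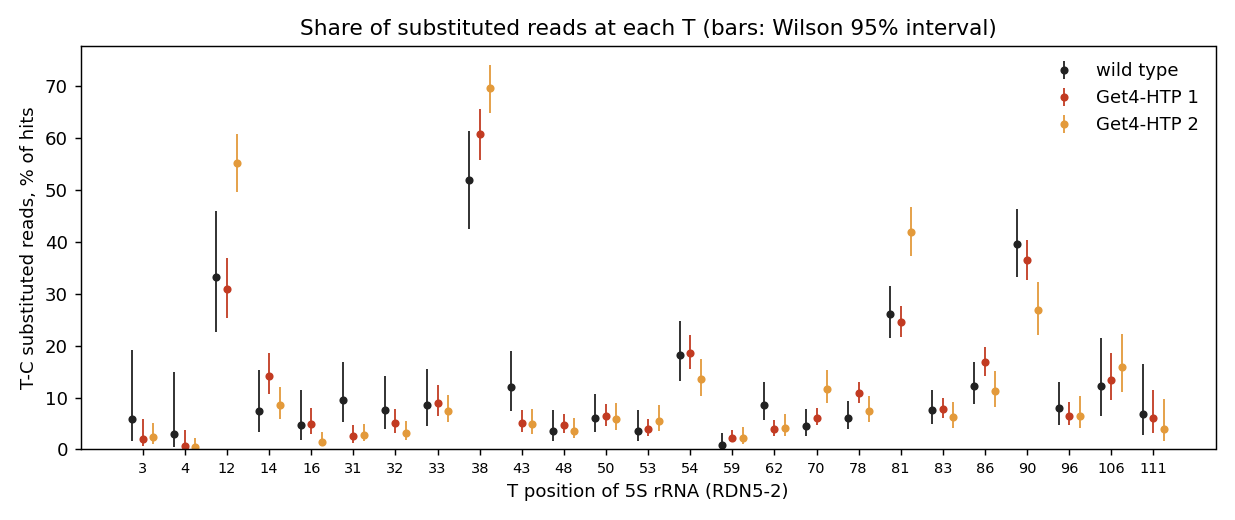
Points give the percentage of the reads over each T of RDN5-2 that carried the T-C substitution (vertical axis) for the 25 T positions with at least 20 hits in every library, with Wilson 95% intervals as bars. Position 38 is highest in every library (51.9% to 69.6%), and Get4-HTP 2 lies above both other libraries at positions 12 and 81 and below them at position 90.

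The libraries were also compared in pairs. Intervals lay apart at 2 of the 25 positions between wild type and Get4-HTP 1, against 6.36% of the T positions of all segments. They lay apart at 6 between wild type and Get4-HTP 2, against 11.7% of all, and at 4 between Get4-HTP 1 and Get4-HTP 2, against 11.3% of all. Between wild type and Get4-HTP 1 both positions, 31 and 62, were lower in Get4-HTP 1. T62C was present in 8.62% of wild type reads and in 3.89% and 4.21% of reads in the Get4-HTP libraries, where the interval of Get4-HTP 2 reached into that of wild type. Between the Get4-HTP libraries nucleotides 12, 70 and 81 were higher and nucleotide 90 was lower in Get4-HTP 2, and Get4-HTP 2 differed from wild type in the same direction at the same 4 positions. T70C was present in 4.55% of reads in wild type, and 6.12% and 11.7% in the respective Get4-HTP libraries. The comparisons of Get4-HTP 2 share that library, and nearby positions share reads that each carry 1 substitution, so these counts are not independent. The background was not matched for depth here either.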

How the data were processed

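PAR-CRAC libraries of 1 wild type and 2 Get4-HTP samples were grouped by their labels, and the Get4-HTP library without a number was called 1. The authors removed adapters with Flexbar, discarded reads under 18 nucleotides, collapsed reads with the same UMI, mapped them with Bowtie 2 (version 2.3.4.2 in the submitters' processing notes, although the headers name a Bowtie 1 folder) and retained reads that carried exactly 1 T-C mutation. The deposited values are raw counts of hits, substitutions and deletions per nucleotide from pyPileup. The genome build is not given in the sources used here. Reads without a T-C mutation were removed before counting, so shares of substituted reads are relative to reads substituted at some T.

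Here counts were divided by mapped reads or rRNA reads of the same library. Intervals are Wilson 95% intervals and cover counting error only. The h46/h47 stretch is the part of 25S whose mean scaled Get4-HTP hits exceeded 20% of their peak. Stretches of 5S were nucleotides 1 to 40, 41 to 80 and 81 to 121. Positions named were the highest nucleotide, run boundaries, the 5 most substituted T of each library, the highest shares, called T and both ends. The segment and the rules for naming positions were nevertheless chosen with earlier results of these data known. Alternatives changed the unit, denominator, minimum hits, interval, bin width and library. Python 3.11.15, numpy 2.4.6, scipy 1.17.1, pandas 2.3.3 and matplotlib 3.10.9 were used. The depth was 107659, 614992 and 933943 mapped reads, of which 13924, 30541 and 30264 were on rRNA.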

Additional observations from a re-analysis of the deposited data

How the results depend on the processing

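The lower number of 5S reads per mapped read in Get4-HTP kept its direction in hits and with either Get4-HTP library alone. The ratios to wild type ranged from 0.268 to 0.544. Substitutions equalled reads on 5S, so counting them returned the same value and was no separate check. The 5S share of rRNA, 1.24 times wild type on average, was 1.60 times in hits and 1.75 times in substitutions when the h46/h47 stretch was left out, which raises the ratio by construction because Get4-HTP hits defined the stretch. The substitution setting was added after seeing the data. In hits over all rRNA the mean was 1.11, but Get4-HTP 2 alone was at 0.866. Get4-HTP minus wild type in nucleotides 81 to 121 of 5S, -5.17 percentage points in hits, was -11.4 in substitutions, and -10.2 for hits in nucleotides 61 to 121. T positions that differed from wild type numbered 1, and 0 with Clopper-Pearson intervals. Leaving out 1 Get4-HTP library gave 2 to 6 of them. Without Get4-HTP 1 these were nucleotides 12, 31, 38, 70, 81 and 90, and without Get4-HTP 2 they were 31 and 62. Changed bins numbered 0. They numbered 4 per mapped reads, all lower, and 1 without the stretch, which was higher and open to the same construction. With 1 Get4-HTP library left out they numbered 0 to 1. The overlap of the Get4-HTP libraries was 84.2% in hits and 76.8% in substitutions. The cause of these changes was not tested. The wild type library set the precision, with 471 reads on 5S and a median of 110.0 hits per nucleotide. No paired analysis was possible because wild type has 1 library.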
